A study of Homo sapiens with 2 samples.

Results

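The TIMM and TOMM genes encode subunits of the translocases that bring nuclear-encoded proteins into mitochondria. They were taken as every symbol in the count files that starts with TIMM or TOMM followed by a digit and holds no hyphen. This rule gave 24 of 24462 symbols, 10 TOMM and 14 TIMM, and none of the 24 was listed on more than 1 row. TIMMDC1 falls outside the rule, as does TIMM29, which the files list under its older symbol C19orf52. Both are described with the other genes of the pathway.

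The study compared A549 cells (a human line established from a lung adenocarcinoma) grown in DMEM with fetal bovine serum after transfection with ADGRF4 siRNAs and after transfection with control siRNAs. ADGRF4 is an adhesion G protein-coupled receptor. There was 1 library of 3' end counts per treatment, with 9825320 counts after ADGRF4 siRNA and 10396047 counts after control siRNA. The sources used here do not state the siRNA sequences, the dose or the time after transfection.

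With 1 library per group no difference has a replicate check, and no test or p-value between the treatments is given. Every range in parentheses is an exact 95% interval of a ratio of 2 counts or of a share. It takes every count as independent and covers no more than counting error. ADGRF4 itself had 1 count after ADGRF4 siRNA and 3 counts after control siRNA, so that a loss of the silenced gene was not detectable at this depth and the library labels are not checked by it. The summed level of 6 epithelial markers was 10608 CPM (counts scaled to an equal sum per library) after ADGRF4 siRNA and 7852 CPM after control siRNA. KRT18 made up most of this sum, followed by KRT7 after ADGRF4 siRNA and by KRT8 after control siRNA. KRT18 and KRT7 were called higher at 1.5-fold under the scaling used for all calls below. On the total counts behind the sum, the log2 ratio of KRT18 was 0.51, short of that limit. CDH1 at 4.34-fold, EPCAM at 1.68-fold and KRT8 at 1.56-fold were lower, and KRT19 lay between. After ADGRF4 siRNA the 5 leukocyte markers summed to 23.41 CPM, the 3 endothelial markers to 0.305 CPM and the 4 fibroblast markers to 4.68 CPM. After control siRNA these sums were 30.01 CPM for leukocytes, 0 CPM for endothelium and 4.81 CPM for fibroblasts. The T cell marker CD3E, the endothelial marker VWF and the fibroblast markers LUM and PDGFRB were at 0 in both libraries. The part of other cell types in the results was not tested.

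Nearly all mitochondrial proteins are made in the cytosol and cross the outer membrane through the TOM complex. Precursors with a cleavable presequence then pass through the TIM23 complex into the matrix, pulled by a motor built around a mitochondrial HSP70. Metabolite carriers are escorted through the intermembrane space by hexamers of small TIM proteins and inserted into the inner membrane by the TIM22 complex. The same receptors and pore take part in the sensing of damaged mitochondria by the kinase PINK1.

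After ADGRF4 siRNA, 4 of the 6 receptor and pore genes of the outer membrane were called lower and 0 higher. Of the 13 compared genes of the inner membrane and intermembrane space, 6 were called higher and 1 lower. Genes averaging 30 or more counts across the pair of libraries were compared, which held for 23 of the 24, and a gene was called where its log2 ratio passed 1.5-fold. The log2 ratio is that of scaled CPM + 1, ADGRF4 siRNA over control siRNA, after TMM scaling (trimmed mean of M values) of the library sizes. Of the 23, 7 were called higher, 5 lower and 11 lay between. Of all 11771 compared symbols, 21.1% were called higher and 22.3% lower. The lower members (21.7% of 23) are thus at the background share. The share of higher members (30.4%) is larger than the background, but among 23 genes a few make that difference, and it was not tested. Under total-count scaling 6 of the 23 were higher. With centring on the GC content of the 3' end 5 were (21.7%, against 15.1% of all symbols). The median log2 ratio of the 23 was 0.081, against -0.016 over all compared symbols, and their SD was 0.67, against 0.77. By name, 6 of 13 compared TIMM genes were higher and 1 was lower, whereas 1 of 10 TOMM genes was higher and 4 were lower. The median log2 ratio was 0.54 for TIMM and -0.37 for TOMM. Under total-count scaling 5 TIMM genes were higher, where 1898 of all 11771 compared symbols were. After centring on the GC content of the 3' end 4 TIMM genes were higher, where 15.1% of all symbols were. Of the TOMM genes 2 were then lower, both among the receptors and pore, where 19.1% of all symbols were. No test stands behind this contrast, and in bulk libraries fewer cells and less RNA per cell cannot be told apart. At 2-fold, 2 members were higher (TIMM13 and TIMM50), where 7.84% of all compared symbols were, and 2 were lower (TOMM40 and TIMM9), where 10.4% were.

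The whole family took 0.282% of the counts after ADGRF4 siRNA and 0.243% after control siRNA. The TIMM genes together had 13927 counts (0.142% of the library) after ADGRF4 siRNA and 10404 (0.1001%) after control siRNA. TIMM13 alone made up much of that difference, and without it the TIMM share was 0.0905% after ADGRF4 siRNA and 0.0740% after control siRNA. The TOMM genes together had 13826 counts (0.141%) after ADGRF4 siRNA and 14844 (0.143%) after control siRNA. That near-equal sum hides TOMM7, without which the TOMM share was 0.0708% after ADGRF4 siRNA and 0.1001% after control siRNA.

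**Figure D1:**
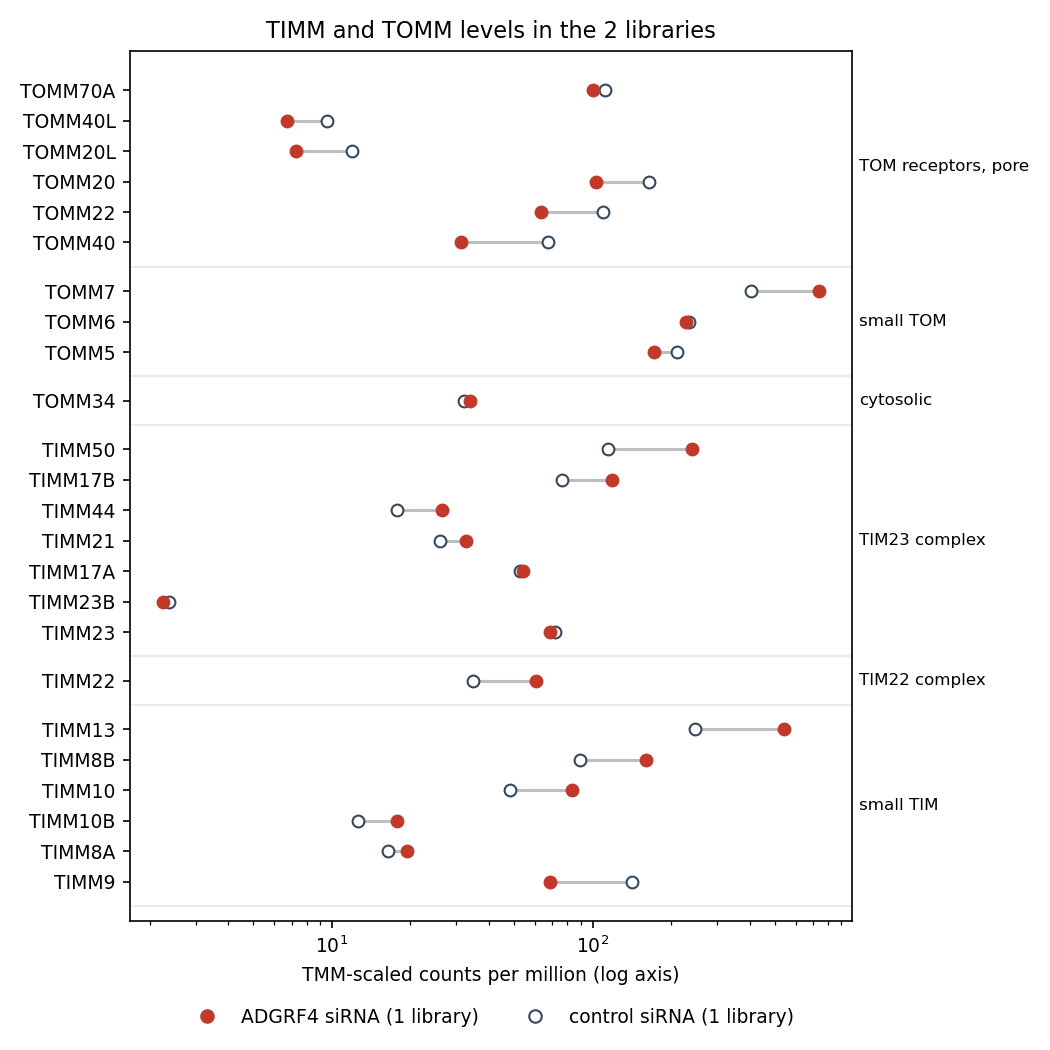
Level of each TIMM and TOMM gene in TMM-scaled CPM (log axis) after ADGRF4 siRNA (filled points) and control siRNA (open points), 1 library each, grouped by complex. The 6 receptor and pore genes of the outer membrane lie to the left of their control points, and 5 of the 6 small TIM genes to the right, with TIMM9 the exception.

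Among the outer membrane receptors and the pore, all 6 genes had lower scaled levels after ADGRF4 siRNA, and 4 were called lower (66.7%). Of all 11771 compared symbols, 6001 had a log2 ratio below 0 and 22.3% were called lower. The log2 ratios of the 6 ran from -1.09 to -0.16, with a median of -0.65. After centring on 3' GC content 2 of the 6 were called lower (33.3%, against 19.1% of all symbols), and TOMM70A had a log2 ratio of 0.13. TOMM40, the beta-barrel pore itself, had 291 counts after ADGRF4 siRNA and 739 after control siRNA, 2.16-fold lower (1.89 to 2.49), the largest decrease of the 24 genes under this scaling. TOMM22, the central receptor that also holds the pore units together, had 590 counts after ADGRF4 siRNA and 1196 after control siRNA, 1.73-fold lower (1.56 to 1.91). TOMM20, the main receptor for presequences, had 963 counts after ADGRF4 siRNA and 1794 after control siRNA, 1.59-fold lower (1.47 to 1.72). GENCODE 29 names 6 processed pseudogenes of TOMM22 and 4 of TOMM20, with which they can share reads, and 0 of TOMM40. The third receptor differed less. TOMM70A, listed now as TOMM70, binds carrier precursors and the cytosolic chaperones that deliver them, and had 936 counts after ADGRF4 siRNA and 1224 after control siRNA, 1.11-fold lower (1.02 to 1.22).

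TOMM20L and TOMM40L, paralogs of TOMM20 and TOMM40, had few counts. TOMM20L had 68 counts after ADGRF4 siRNA and 131 after control siRNA, 1.64-fold lower (1.22 to 2.24). The final 300 bases of its transcript are overlapped on the other strand by TIMM9, which also had fewer counts after ADGRF4 siRNA, and reads of the pair could not be separated by a count that ignores strand. TOMM40L had 63 counts after ADGRF4 siRNA and 105 after control siRNA, a ratio of 1.42-fold lower (1.03 to 1.97) that did not reach the 1.5-fold limit.

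Of the 3 small subunits around the pore, 1 was called higher and 0 lower, where 21.1% of all compared symbols were higher and 22.3% lower. TOMM7, which tunes the stability of the TOM complex and is needed for PINK1 to stay on damaged mitochondria, had 6874 counts after ADGRF4 siRNA and 4433 after control siRNA, 1.82-fold higher (1.75 to 1.89). TOMM6 had 2120 counts after ADGRF4 siRNA and 2558 after control siRNA, a ratio of 0.972 (0.917 to 1.03). Its 3' end is overlapped on its own strand by AL365205.1 and on the other strand by USP49, which had 41 counts after ADGRF4 siRNA and 101 after control siRNA. TOMM5 had 1604 counts after ADGRF4 siRNA and 2313 after control siRNA, 1.23-fold lower (1.15 to 1.31). TOMM34, a cytosolic co-chaperone that binds HSP70 and HSP90 and is no part of the membrane complex, had 317 counts after ADGRF4 siRNA and 351 after control siRNA, a ratio of 1.06 (0.907 to 1.24).

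Promoters of 3 TOMM genes with large differences are shown because they hold the same match to a motif of NRF1, a transcription factor known for control of nuclear genes for mitochondrial proteins, while their counts differ in opposite directions. The windows span 250 bases before to 50 after the RefSeq start on GRCh38.p14, written 5′ to 3′ in the direction of the gene. Capitals mark matches to the NRF1 motif (GCGCA and GCGC with any 1 base between) or to CCGGAAG, an ETS motif that GABPA binds. TOMM40 and TOMM20 hold GCGCAGGCGC, at base 29 and base 150 of the window, and TOMM7 holds GCGCCTGCGC, the same letters read on the other strand, at base 237. TOMM20 also holds an ETS match at base 229 and a CACGTG E-box, not in capitals, at base 83. TOMM40 lies at chr19:44891004-44891303 (plus strand), TOMM20 at chr1:235128788-235129087 (minus strand) and TOMM7 at chr7:22822800-22823099 (minus strand).
TOMM40: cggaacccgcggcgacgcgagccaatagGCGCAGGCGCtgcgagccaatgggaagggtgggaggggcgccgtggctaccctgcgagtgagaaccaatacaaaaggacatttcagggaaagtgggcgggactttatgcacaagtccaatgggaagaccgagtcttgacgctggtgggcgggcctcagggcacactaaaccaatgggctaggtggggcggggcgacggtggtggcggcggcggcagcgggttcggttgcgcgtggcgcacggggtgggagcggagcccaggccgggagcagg
TOMM20: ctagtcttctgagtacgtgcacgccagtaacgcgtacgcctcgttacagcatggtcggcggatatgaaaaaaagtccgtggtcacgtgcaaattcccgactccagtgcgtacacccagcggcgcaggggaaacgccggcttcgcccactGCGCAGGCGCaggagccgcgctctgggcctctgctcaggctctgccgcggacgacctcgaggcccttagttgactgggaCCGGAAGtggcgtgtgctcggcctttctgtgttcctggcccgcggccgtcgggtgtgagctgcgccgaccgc
TOMM7: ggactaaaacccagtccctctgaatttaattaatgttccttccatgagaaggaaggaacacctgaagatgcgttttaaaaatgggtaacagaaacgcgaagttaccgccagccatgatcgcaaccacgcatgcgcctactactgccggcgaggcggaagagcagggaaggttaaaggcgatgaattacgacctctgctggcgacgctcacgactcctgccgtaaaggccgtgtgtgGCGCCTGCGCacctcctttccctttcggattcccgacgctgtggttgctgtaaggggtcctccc

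Promoter windows were found for 22 of the 24 genes. The NRF1 motif was present in 4 of them (18.2%), which adds TOMM34 to the 3 shown, and in 5.78% of all 35114 RefSeq windows of this length. The ETS motif was present in 10 of 22 (45.5%) and in 10.3% of all windows. TIMM23 and TIMM23B, whose windows are nearly the same, both count among the 10. ETS matches occurred in 2 of the 6 higher genes with a window, in 2 of the 5 lower genes, in 5 of the 10 genes between the limits and in TIMM23B. A YY1 motif (AANATGGC) was found in 3 of 22 windows, against 6.58% of all, a CACGTG E-box in 3 (7.26% of all) and a CCAAT box in 8 (34.6% of all). The E-box was in 1 of 6 higher genes, 1 of 5 lower genes and 1 of 10 genes between the limits. The heat shock motif GAANNTTC was found in 0 of 22, against 6.77% of all windows. All motifs were searched on both strands. The set of all windows was not matched to the members in expression or GC content, so the shares are not compared like for like. A match is a description of the letters only.

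**Figure D2:**
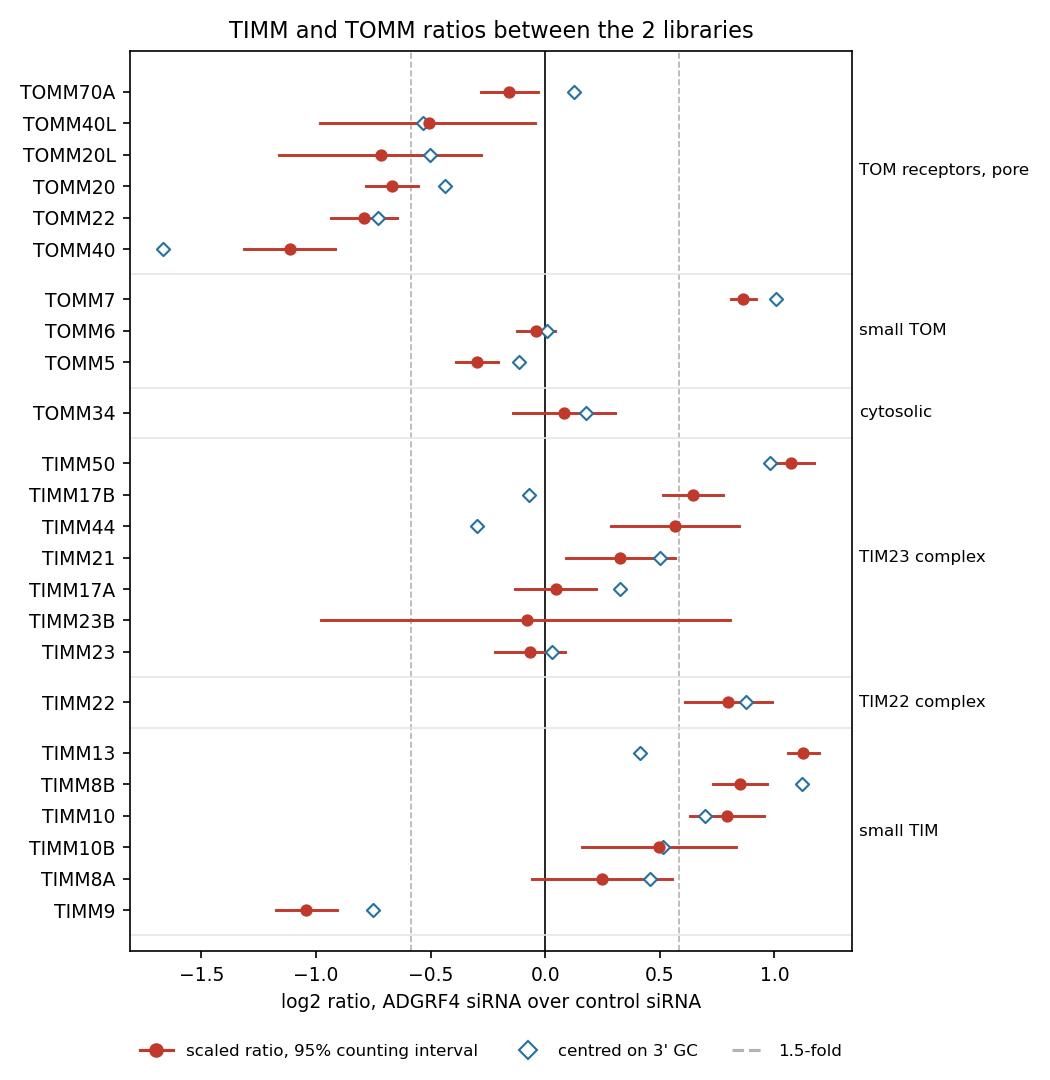
Log2 ratio of scaled counts, ADGRF4 siRNA over control siRNA, for each of the 24 genes, without a pseudocount, with its 95% counting interval (red), and the log2 ratio of CPM + 1 after centring on 3' GC content for the 23 compared genes (blue diamonds). Dashed lines mark 1.5-fold. TOMM40 lies at -1.09 and at -1.67 after centring on the CPM + 1 scale, whereas TIMM17B lies at 0.64 and at -0.072.

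In the presequence pathway of the inner membrane, 2 of 6 compared genes were higher, 0 lower and 4 between, with a median log2 ratio of 0.43. Of all compared symbols, 21.1% were higher and 22.3% lower. After centring on 3' GC, 1 of the 6 was higher (TIMM50) and their median was 0.18. That is 16.7%, near the 15.1% of all symbols called higher there. TIMM50, the receptor that takes precursors over from the TOM complex, had 2235 counts after ADGRF4 siRNA and 1248 after control siRNA, 2.10-fold higher (1.96 to 2.25). TIMM23, which forms part of the channel, had 638 counts after ADGRF4 siRNA and 783 after control siRNA, a ratio of 0.956 (0.860 to 1.06). TIMM23B, a near copy of TIMM23, had 21 counts after ADGRF4 siRNA and 26 after control siRNA and was under the count limit, and reads of the pair may be split between them. TIMM21, which links the TIM23 complex to TOM and to respiratory chain assembly, had 304 counts after ADGRF4 siRNA and 284 after control siRNA, a ratio of 1.26 (1.06 to 1.48). TIMM44, the tether of the HSP70 motor, had 246 counts after ADGRF4 siRNA and 195 after control siRNA and a ratio of 1.48 (1.22 to 1.80), just under the limit.

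TIMM17A and TIMM17B are alternative subunits of the TIM23 complex. TIMM17B had 1111 counts after ADGRF4 siRNA and 833 after control siRNA, 1.56-fold higher (1.43 to 1.71), a call lost under total-count scaling, where its log2 ratio was 0.49. TIMM17A, a short-lived protein that mitochondrial stress is known to deplete, had 505 counts after ADGRF4 siRNA and 574 after control siRNA, a ratio of 1.03 (0.914 to 1.17). TIMM17A thus took 31.2% of the counts of the pair after ADGRF4 siRNA (28.99 to 33.57%) and 40.8% after control siRNA (38.21 to 43.42%). This share needs no scaling between the libraries, but the 3' ends of the pair differ in base composition, at 33.7% GC for TIMM17A and 59.0% for TIMM17B. On ratios centred on 3' GC the difference between them, TIMM17A minus TIMM17B, was 0.40 on the log2 scale, against -0.59 without centring.

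TIMM22, the insertase for metabolite carriers, had 566 counts after ADGRF4 siRNA and 382 after control siRNA, 1.74-fold higher (1.52 to 1.98). Its last 300 bases are overlapped on the other strand by ABR, which had 125 counts after ADGRF4 siRNA and 266 after control siRNA. C19orf52 (TIMM29) and AGK, subunits of the human TIM22 complex beside TIMM22, went the other way. C19orf52 had 33 counts after ADGRF4 siRNA and 93 after control siRNA, 2.40-fold lower (1.60 to 3.69), and AGK had 36 counts after ADGRF4 siRNA and 106 after control siRNA, 2.51-fold lower (1.71 to 3.77).

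Of the 6 small TIM genes, 3 were called higher (50%, against 21.1% of all compared symbols) and 1 lower (16.7%, against 22.3%). With centring on 3' GC, 2 of the 6 were higher and 1 lower, where 15.1% of all symbols were higher and 19.1% lower. The spread among the 6, from -1.03 to 1.12 on the log2 scale without centring, was wider than in the other groups of TIMM and TOMM genes. TIMM13 had 5037 counts after ADGRF4 siRNA and 2708 after control siRNA, 2.18-fold higher (2.08 to 2.29), the largest increase of the 24 genes under this scaling. TIMM8A, its partner in a hexamer that chaperones TIMM23 and the gene mutated in deafness-dystonia syndrome, had 181 counts after ADGRF4 siRNA and 179 after control siRNA, a ratio of 1.19 (0.959 to 1.47). TIMM8A took 3.47% of the TIMM8A and TIMM13 counts after ADGRF4 siRNA (2.989 to 4.002%) and 6.20% after control siRNA (5.35 to 7.14%), in a pair chosen after the counts were seen. The log2 difference, TIMM8A minus TIMM13, was -0.89, and 0.045 after centring on 3' GC, where TIMM13 was no longer called. TIMM8B, a paralog of TIMM8A, had 1497 counts after ADGRF4 siRNA and 975 after control siRNA, 1.80-fold higher (1.66 to 1.95). Its last 300 bases are overlapped by NKAPD1 on the other strand, listed as C11orf57, which had 1015 counts after ADGRF4 siRNA and 1267 after control siRNA. TIMM8A took 10.8% of the TIMM8A and TIMM8B counts after ADGRF4 siRNA (9.34 to 12.4%) and 15.5% after control siRNA (13.5 to 17.7%), and the log2 difference of the pair was -0.61, or -0.67 after centring on 3' GC.

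TIMM9 and TIMM10 encode the subunits of the main carrier chaperone, a hexamer with equal numbers of each, and their counts went in opposite directions. TIMM9 had 643 counts after ADGRF4 siRNA and 1553 after control siRNA, 2.06-fold lower (1.88 to 2.26). TIMM10 had 777 counts after ADGRF4 siRNA and 526 after control siRNA, 1.73-fold higher (1.55 to 1.94). TIMM9 therefore took 45.3% of the counts of the pair after ADGRF4 siRNA (42.7 to 47.9%) and 74.7% after control siRNA (72.8 to 76.6%), a comparison chosen after the counts were seen. The log2 difference, TIMM9 minus TIMM10, was -1.81, and -1.45 after centring on 3' GC. TIMM9 has 3 named processed pseudogenes in GENCODE 29 and TIMM10 has 0, and reads of such copies can be lost or added in mapping. The same limit holds for TIMM8B, with 2 named processed pseudogenes, and for TIMM8A and TIMM17B, with 1 each. TIMM10B, a further small TIM protein that sits on the TIM22 complex, had 166 counts after ADGRF4 siRNA and 138 after control siRNA, a ratio of 1.41 (1.12 to 1.78).

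The TIMM10 promoter is shown as the higher member of the TIMM9 and TIMM10 pair, since it holds 2 ETS matches in the same orientation, at bases 196 and 238, and a CACGTG E-box at base 250, whereas the TIMM9 window holds none of the motifs searched. ETS matches were also found in TOMM20 and TOMM22, both lower genes. An E-box was also found in TOMM20 and in TIMM8A, which lay between the limits. The TIMM10 window lies at chr11:57530705-57531004 (minus strand, GRCh38.p14, RefSeq), and capitals mark the ETS matches.
TIMM10: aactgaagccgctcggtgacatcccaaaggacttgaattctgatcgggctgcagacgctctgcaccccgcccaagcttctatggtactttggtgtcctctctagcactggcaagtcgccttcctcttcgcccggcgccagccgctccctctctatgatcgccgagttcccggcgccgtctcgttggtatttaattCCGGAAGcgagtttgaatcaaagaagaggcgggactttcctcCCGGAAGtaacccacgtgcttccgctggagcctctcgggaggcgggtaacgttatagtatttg

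**Figure D3:**
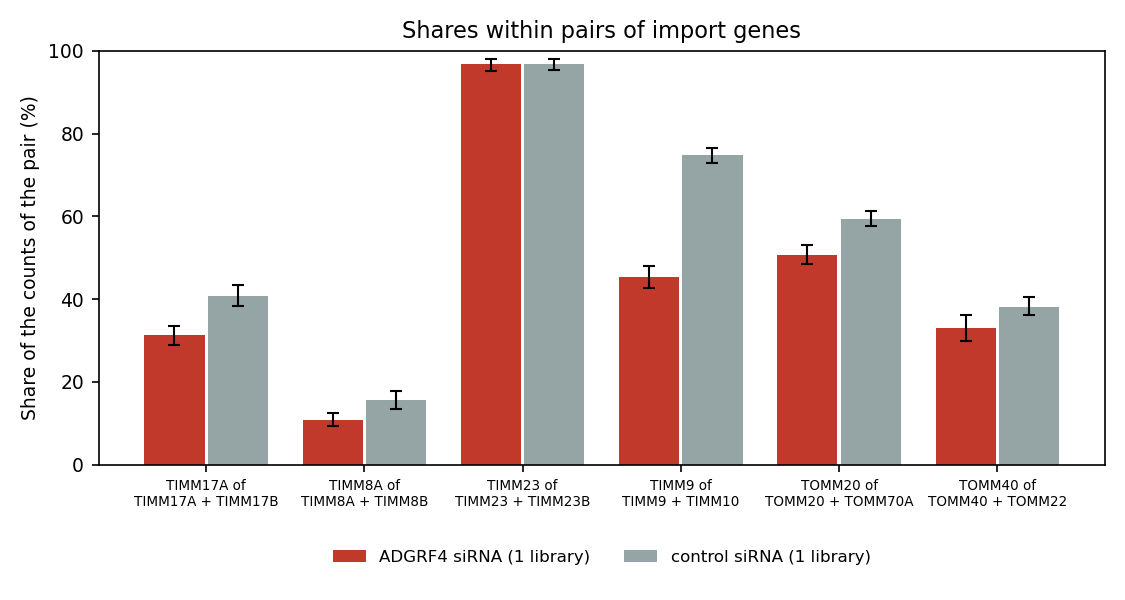
Share of the counts of a pair taken by its first gene, in percent, after ADGRF4 siRNA (red) and control siRNA (grey), 1 library each, with exact 95% binomial intervals. The intervals take every count as independent and cover no more than counting error. TIMM9 took 45.3% of the TIMM9 and TIMM10 counts after ADGRF4 siRNA and 74.7% after control siRNA, while TIMM23 took 96.8% of the TIMM23 and TIMM23B counts in both libraries.

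Pairs within the TOM complex were also chosen after the counts were seen. TOMM20 took 50.7% of the TOMM20 and TOMM70A counts after ADGRF4 siRNA (48.4 to 53.0%) and 59.4% after control siRNA (57.7 to 61.2%). TOMM40 took 33.0% of the TOMM40 and TOMM22 counts after ADGRF4 siRNA (29.9 to 36.2%) and 38.2% after control siRNA (36.0 to 40.4%), where the intervals of the 2 libraries overlap. The log2 difference, TOMM20 minus TOMM70A, was -0.51, and -0.56 after centring on 3' GC. For TOMM40 minus TOMM22 it was -0.31, and -0.94 after centring.

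The base composition of the 3' end moves with the ratio in these libraries. Across all 11521 compared symbols with a value, Pearson's r between the log2 ratio and the GC content of the transcript's last 300 bases was 0.44 (Spearman's rho 0.46). Across the 23 compared members it was 0.27 (rho 0.29), a description over genes that share the same 2 libraries. The members' median 3' GC was 41.7%, against 40.3% over all. When ratios were centred on the median of symbols with like 3' GC, 5 members stayed higher and 3 lower, where 15.1% of all symbols were higher and 19.1% lower. TIMM50 (0.98), TOMM7 (1.006), TIMM8B (1.12), TIMM10 (0.70) and TIMM22 (0.88) kept a log2 ratio past the higher limit, and TOMM40 (-1.67), TIMM9 (-0.75) and TOMM22 (-0.73) past the lower one. TIMM13, with 59.7% GC, fell short at 0.41, TIMM17B turned to -0.072, and TOMM20 (-0.44) and TOMM20L (-0.50) no longer reached 1.5-fold. The part of base composition in the results was not tested beyond this centring.

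**Figure D4:**
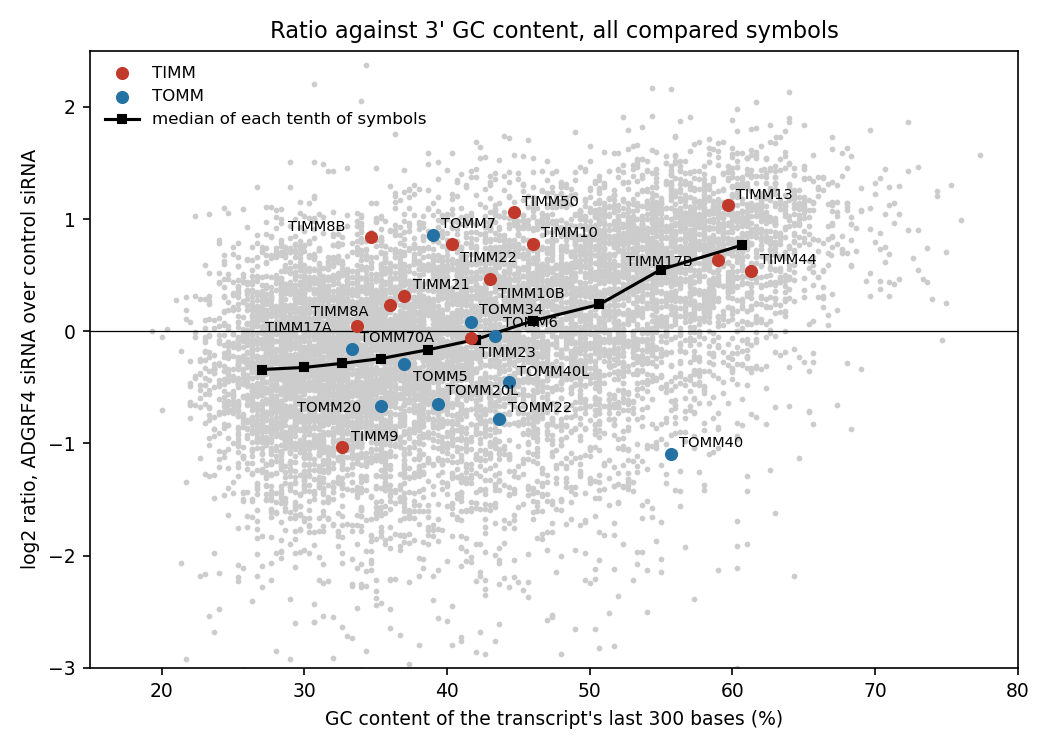
Log2 ratio of CPM + 1, ADGRF4 siRNA over control siRNA, against the GC content (percent) of the last 300 transcript bases. Grey points are compared symbols, coloured points the 23 compared TIMM and TOMM genes, and squares the medians of 10 equal bins of symbols by GC content. A further 24 symbols lie outside the axes. TOMM40 (55.7% GC) lies far below TIMM17B (59.0%) and TIMM13 (59.7%), the members nearest to it in GC content. TIMM8B and TOMM7 lie above the median line.

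More of the genes that work beside the translocases were lower than higher after ADGRF4 siRNA. Of 45 listed, 43 symbols were found and 42 compared. Of these, 5 were higher (11.9%, against 21.1% of all compared symbols), 15 were lower (35.7%, against 22.3%) and 22 lay between, with a median log2 ratio of -0.28. In the group of inner membrane partners, 5 of 9 were lower and 0 higher, although TIMM50, TIMM17B and TIMM22 themselves were higher. HSPA9, the HSP70 of the import motor, had 778 counts after ADGRF4 siRNA and 1610 after control siRNA, 1.76-fold lower (1.62 to 1.92). DNAJC19, a J-domain protein of the motor, had 74 counts after ADGRF4 siRNA and 205 after control siRNA, 2.36-fold lower (1.80 to 3.12). GRPEL2, a nucleotide exchange factor for HSPA9, had 44 counts after ADGRF4 siRNA and 116 after control siRNA, 2.25-fold lower (1.58 to 3.26), while its paralog GRPEL1 had 393 counts after ADGRF4 siRNA and 426 after control siRNA and a ratio of 1.08 (0.941 to 1.24). PAM16, whose yeast counterpart holds the J-domain protein of the motor in check, had 120 counts after ADGRF4 siRNA and 167 after control siRNA and a ratio of 0.843 (0.661 to 1.07). TIMMDC1, a complex I assembly factor with a TIM17-like fold, had 1012 counts after ADGRF4 siRNA and 1528 after control siRNA, 1.29-fold lower (1.19 to 1.39).

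The sorting and assembly machinery, which folds TOMM40 and other beta-barrels into the outer membrane, was split. MTX1 had 877 counts after ADGRF4 siRNA and 498 after control siRNA, 2.07-fold higher (1.85 to 2.31), and SAMM50, its central barrel, had 791 counts after ADGRF4 siRNA and 562 after control siRNA, 1.65-fold higher (1.48 to 1.84). MTX2 had 54 counts after ADGRF4 siRNA and 161 after control siRNA, 2.54-fold lower (1.86 to 3.53), and MTX3 had 24 counts after ADGRF4 siRNA and 69 after control siRNA, 2.45-fold lower (1.52 to 4.08). MTX1 and SAMM50 have 61.0% and 56.7% GC in their 3' ends and MTX2 and MTX3 25.3% and 30.3%, and after centring on it the log2 ratios were 0.19, 0.14, -0.86 and -0.72.

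The disulfide relay oxidises the small TIM proteins in the intermembrane space. CHCHD4, its import receptor and oxidase, had 567 counts after ADGRF4 siRNA and 539 after control siRNA, a ratio of 1.23 (1.09 to 1.39). GFER, which reoxidises CHCHD4, had 495 counts after ADGRF4 siRNA and 277 after control siRNA, 2.10-fold higher (1.81 to 2.44), and AIFM1, which binds CHCHD4, had 239 counts after ADGRF4 siRNA and 550 after control siRNA, 1.96-fold lower (1.68 to 2.29). Among 7 genes of cristae organisation, CHCHD6 was 1.82-fold higher (1.34 to 2.47), and CHCHD3 at 2.90-fold (2.31 to 3.68), APOOL at 1.84-fold and MINOS1 at 1.63-fold were lower. After centring on 3' GC the calls of CHCHD6, APOOL (-0.52) and MINOS1 (-0.54) were lost. IMMT, the scaffold of that complex, had 1481 counts after ADGRF4 siRNA and 1590 after control siRNA, a ratio of 1.09 (1.02 to 1.17).

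Of 7 processing peptidases, 2 were lower (28.6%, against 22.3% of all compared symbols) and 0 higher. PMPCB, the catalytic subunit of the presequence protease, had 389 counts after ADGRF4 siRNA and 818 after control siRNA, 1.79-fold lower (1.59 to 2.03), whereas its partner PMPCA had 147 counts after ADGRF4 siRNA and 156 after control siRNA and a ratio of 1.11 (0.876 to 1.39). MIPEP, which trims precursors further, was 2.45-fold lower (1.74 to 3.49). The 4 matrix chaperones, among them HSPD1 and HSPE1, lay between the limits, as did the insertase OXA1L. In quality control, LONP1, a matrix protease, was 2.29-fold higher (2.02 to 2.59), MARCH5, an outer membrane ubiquitin ligase, 3.37-fold lower (2.66 to 4.31) and the stress protease OMA1 2.01-fold lower (1.43 to 2.84). YME1L1, the protease that degrades TIMM17A under stress, had 487 counts after ADGRF4 siRNA and 600 after control siRNA, a ratio of 0.952 (0.843 to 1.07). After centring on 3' GC, 0 of the 42 partners were higher and 16 lower (38.1%), where 15.1% of all symbols were higher and 19.1% lower. Among the lower genes APOOL and MINOS1 dropped out, while PAM16 (-0.94), CLPP (-0.71) and C19orf70 (-0.60), between the limits before, came in. LONP1 had a log2 ratio of 0.33 and GFER of 0.33.

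**Figure D5:**
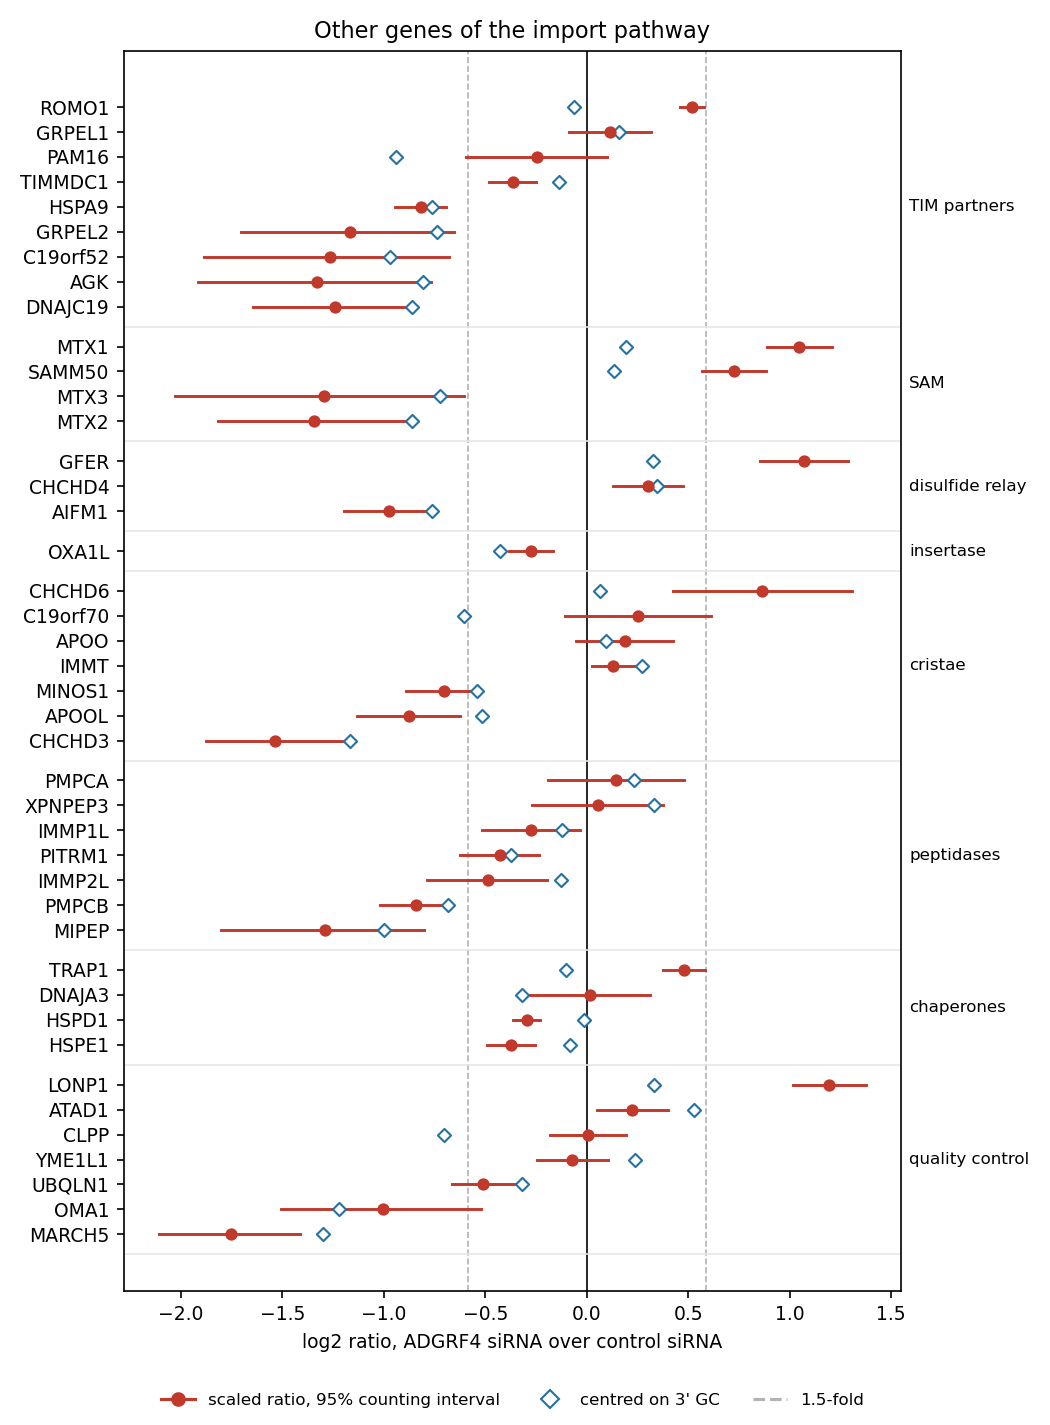
Log2 ratio of scaled counts, ADGRF4 siRNA over control siRNA, without a pseudocount and with 95% counting intervals (red), for the 42 compared genes of the import pathway outside the TIMM and TOMM names, and the value of CPM + 1 centred on 3' GC content (blue diamonds). Dashed lines mark 1.5-fold. Of the 5 genes above the upper line, MTX1, SAMM50, GFER, CHCHD6 and LONP1, all have centred values below it.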

How the data were processed

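Each deposited file holds whole-number counts, 1 value per row of a gene symbol, which the authors left unnormalized. Per the labels' protocols, RNA was extracted with Trizol and the Lexogen QuantSeq kit was used for 3' end libraries. Bowtie2, edgeR and the build hg19 were used, per the submitters' processing notes. Their roles and versions, the annotation, the strand setting and the treatment of multi-mapping or duplicate reads were not given in the sources used here. No molecular identifiers are in the files, so duplicate reads cannot be told from separate molecules. The intervals take every count as independent and may be too narrow even for counting error.

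From these counts, rows of 1 symbol were summed (286 symbols on 1561 of 25737 rows, none a TIMM or TOMM gene) and library sizes scaled by TMM in edgeR 4.0.16 under R 4.3.3. Log2 ratios use CPM + 1, which understates the change of low genes. Printed folds carry no pseudocount and stand with exact Clopper-Pearson 95% intervals from scipy 1.17.1. Genes were called by size at 1.5-fold. The members, the lists and the rule for named genes (all members, and the partner genes past 1.5-fold with others that state a range) were chosen with earlier results of these data known. The comparison of partner subunits within pairs, the promoters shown and the motifs searched were chosen after the counts were seen.

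The 3' GC content was taken from the last 300 bases of each symbol's longest transcript in GENCODE 29 (GRCh38) and was found for 97.9% of compared symbols. Ratios were centred on medians in 20 bins of it. Coordinates are given for RefSeq promoter windows on GRCh38.p14 only, since the processing notes name hg19. Protein sequences were not used here. The ratio calculation was tested on simulated counts. DESeq2 1.42.0 size factors, total-count and upper-quartile scaling, other pseudocounts, count limits, fold limits and the choice of transcript for 3' GC were tried as alternatives.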

Additional observations from a re-analysis of the deposited data

How the results depend on the processing

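No paired analysis was possible because each treatment has 1 library. Under DESeq2 size factors, upper-quartile factors, a pseudocount of 0.1, a limit of 10 counts, no count limit and use of the row with the most counts in place of the sum, the 7 higher and 5 lower members kept their calls. Total-count scaling shifted the members by -0.15 on the log2 scale (median) and moved the median of all compared symbols to -0.16. Under it TIMM17B lost its call, and TOMM34 and TIMM17A, both between the limits, changed sign. A pseudocount of 5 ended the call of TOMM20L, and a limit of 100 counts removed it and TOMM40L. Under the limit of 100 counts, 9 of 35 partner genes were lower and 4 higher. Of all 8855 symbols compared there, 1788 were lower and 1983 higher. At 2-fold, 2 members were higher (TIMM13, TIMM50) and 2 lower (TOMM40, TIMM9), that is 2 TIMM and 0 TOMM genes higher and 1 TOMM gene, the pore, lower. At that limit 3 partner genes were higher and 9 lower, and over all symbols 923 were higher and 1219 lower, against 3855 and 3975 at the loosest limit tried.

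Centring on 3' GC left 3 members lower, 2 of them TOMM genes of the receptors and pore, with 0 partner genes higher, and turned TIMM17B to -0.072. The same counts (3, 2, 2 and 0) came from the GC of the longest coding transcript, an alternative added after the data were seen, with TIMM17B at -0.084 and 1621 symbols higher over the whole table. TIMM44, TOMM6, TIMM23 and TOMM70A, none of them called, also changed sign on centring. Depth limits TIMM23B, with a ratio between 0.507 and 1.75, and TOMM20L and TOMM40L most.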
